A study of Mus musculus with 16 samples.

Results

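Ribosome-protected fragments (RPF), the short stretches of mRNA that translating ribosomes shield from nuclease, were compared with total RNA of leukaemic cells. The comparison was made within pairs: each RPF library was set against the total RNA library with the same T-ALL number and the same valine dose. This gave 8 pairs from all 16 libraries, and diet was not a contrast. The labels do not say that both libraries of a pair come from the same cells. Of 12012 genes in the table, 6559 had a mean of at least 5 FPKM (fragments relative to gene length in kilobases and to library size) in both fractions and were compared.

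The cells came from T cell leukaemias (T-ALL) caused by NOTCH-ΔE, a truncated Notch protein that signals without ligand, and grown in C57BL/6 mice as secondary transplants. For 3 weeks the recipients received 0, 0.4, 0.8 or 8 g/kg valine, the last in the control diet. Doses are given per kg of food as in the sample labels, although the treatment protocol speaks of drinking water for the middle doses. GFP-positive cells were then sorted from the spleen, and each of the 4 diets had 1 RPF and 1 total RNA library of T-ALL 2 and of T-ALL 3. Every library is thus from NOTCH-ΔE leukaemia, and no normal T cells were part of the comparison. The labels do not say whether the T-ALL numbers stand for primary tumours or for recipient mice, so the p-values measure the spread between these 8 pairs, which may be partly technical.

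As background, the count of footprints on a message reflects how many ribosomes sit on it, so footprints set against RNA give a relative measure of ribosome occupancy. Messages for ribosomal proteins and several elongation and initiation factors begin with a cytosine followed by a run of pyrimidines, the 5′ terminal oligopyrimidine (TOP) motif, through which the mTORC1 kinase and the LARP1 protein control their loading onto ribosomes. Messages of replication-dependent histones carry a stem-loop in place of a poly(A) tail and are used in S phase. The 13 proteins encoded by mitochondrial DNA are made by mitochondrial ribosomes inside the organelle.

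Depth differed between the fractions. The FPKM values corresponded to 41848 to 205545 reads per RPF library and to 364685 to 1269364 reads per total RNA library. Of the table's genes, 23.5% to 44.6% had 0 reads in an RPF library and 7.64% to 15.7% in a total RNA library. Compared genes had a median of 6 reads per RPF library and 47.9 per total RNA library, and 2349 of them (35.8%) had 0 reads in at least 1 RPF library. The T cell markers, all 12 of them in the table, took 38.0 to 49.6 of 10000 reads in RPF and 43.6 to 54.2 in total RNA. The 8 macrophage markers took 0.854 to 3.78 of 10000 reads in RPF against 0.0548 to 0.280 in total RNA, ranges that did not overlap. For the 11 neutrophil markers the ranges were 0.239 to 27.6 and 0.110 to 4.72, for 9 erythroid markers 0.498 to 17.4 and 0.241 to 4.20, and for 3 B cell markers 0 to 0.632 and 0 to 0.654. The part of other cells in the differences below was not tested, and in such bulk samples fewer cells of a type and less RNA per cell cannot be told apart.

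Footprint and RNA levels followed each other over genes, with a Spearman correlation of 0.839 between the mean levels of the 6559 genes. The difference, log2(FPKM + 0.5) in RPF minus that in total RNA, had a median of -0.45 over genes. Its middle part between the 25th and 75th percentiles ran from -1.09 to 0.10, and the median standard error (SE) of a gene was 0.32. Limma called 423 genes (6.45%) with more footprints than RNA and 1070 genes (16.3%) with fewer, at an adjusted p (Benjamini-Hochberg, over all 6559 genes) under 0.05. The shares called depended on coverage. Of genes with a mean of 10 to 20 reads per library over all 16 libraries, 1.73% were higher and 8.19% lower. At 50 to 100 reads the shares were 11.9% and 21.1%, and at 200 to 500 reads 25.7% and 41.3%. At 500 reads or more they were 15.5% and 75.9%. FPKM is relative within a library, so the zero of this scale is arbitrary. The library size implied by the deposited values also differed from the reads in the table. These reads were 87.5% to 98.5% of that size in RPF and 103% to 111% in total RNA. With values scaled to the table's reads, a setting chosen after seeing the data, 720 genes were higher and 639 lower. The median was then -0.22. With each pair centred on its own median gene, the split was 713 genes (10.9%) higher and 689 (10.5%) lower. With all libraries thinned to the depth of the shallowest, 104 genes (1.59%) were higher and 287 (4.38%) lower. A stricter call, which also asks for a difference of at least 1 and the same sign in all 8 pairs, took 118 genes (1.8%) higher and 567 (8.64%) lower. All 8 RPF values lay above all 8 total RNA values for 135 genes (2.06%) and below them for 449 (6.85%).

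**Figure D1:**
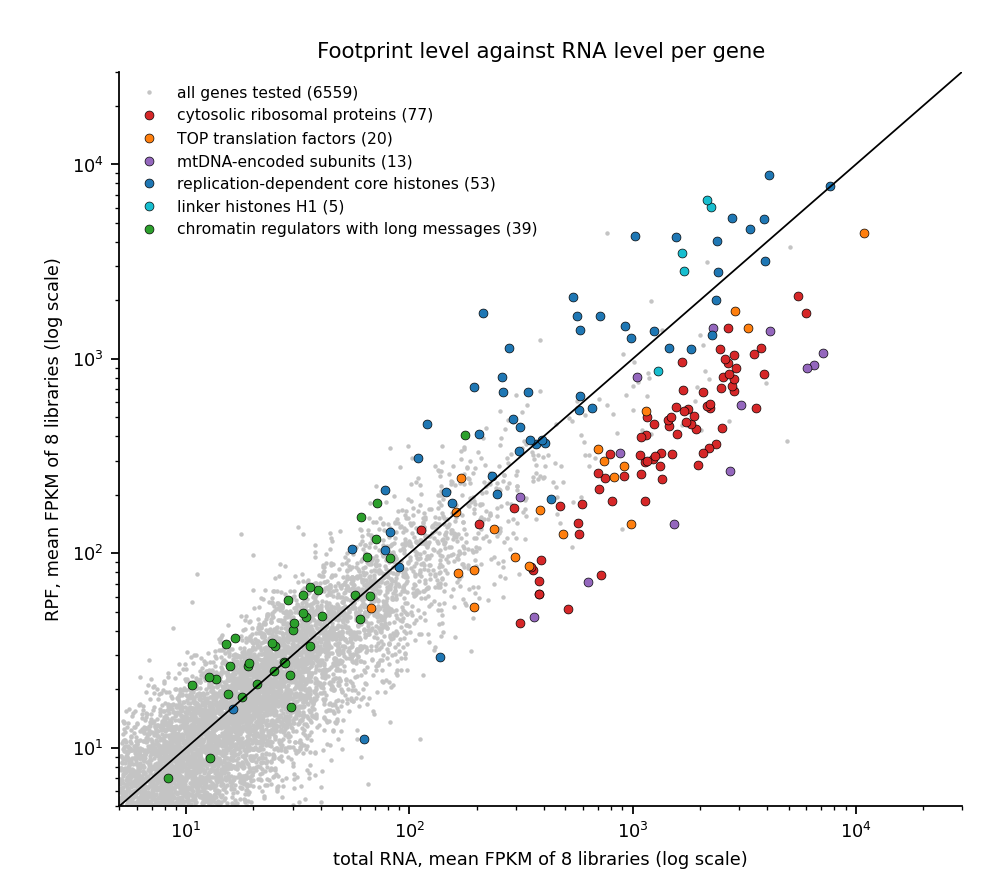
Mean FPKM of each compared gene over the 8 total RNA libraries (horizontal log axis) and the 8 RPF libraries (vertical log axis), with the line of equal values and 6 gene lists in colour. Cytosolic ribosomal protein genes, with a median difference of -1.92, lie below the line except Rpl15, and 4 of 5 linker histone genes lie above it.

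Cytosolic ribosomal protein genes held far fewer footprints than their RNA. Of 77 compared, 75 were called lower and 0 higher, with a median difference of -1.92. Over all genes the median was -0.45, and 16.3% were called lower. The ribosomal protein genes are short, with a median length of 977 bases, and many other short genes were lower too. Outside the ribosomal, TOP factor, histone and mtDNA lists, genes with at least 50 reads per library were binned by length. Of 48 such genes of 500 to 1000 bases 70.8% were called lower, with a median of -0.97. Of 205 such genes of 1000 to 2000 bases 44.4% were called lower, with a median of -0.53. The 75 ribosomal protein genes included 44 of the 46 large-subunit genes and all 29 small-subunit genes, and Fau, whose protein is a fusion that yields a small-subunit protein. Under the stricter call 72 were lower, and at equal depth 73. These genes took 4.54% ± 0.805 (SD, n = 8) of RPF reads and 12.8% ± 0.53 of total RNA reads. The share ranged from 2.87% to 5.59% over the RPF libraries and from 11.7% to 13.3% over the total RNA libraries. Every pair showed the difference, and the list median ran from -2.34 in T-ALL 2 at 0.4 g/kg to -1.54 in T-ALL 3 at 0 g/kg. Reads of ribosomal protein genes and their many near-identical pseudogenes may be shared, which makes single members uncertain.

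Rps6, a small-subunit protein phosphorylated downstream of mTORC1, had 751 to 1495 FPKM in RPF (median 1040) and 2460 to 3084 in total RNA (median 2891). The ranges did not overlap, and the difference was -1.47 ± 0.10 (SE, n = 8 pairs; limma adjusted p = 7.27e-06). Rplp0, a protein of the ribosomal stalk, had 1016 to 3103 FPKM in RPF (median 2148) and 4750 to 6305 in total RNA (median 5460), a difference of -1.45 ± 0.16 (limma adjusted p = 0.000173). Again every RPF library lay below every total RNA library. Further down stood the very short proteins Rpl39 and Rpl41 of the large subunit. Rpl39 had 20.2 to 236 FPKM in RPF (median 68.8) and 536 to 795 in total RNA (median 741), a difference of -3.60 ± 0.32 (limma adjusted p = 3.84e-05). Rpl41 had 0 to 121 FPKM in RPF, from 0 to 11 reads, and 465 to 598 in total RNA, a difference of -4.13 ± 0.74 (limma adjusted p = 0.00374). Without the T-ALL 2 pair at 0 g/kg, which had 0 RPF reads, the Rpl41 difference was -3.31, and at equal depth with all pairs it was -5.67. A few reads thus set its size, though no RPF library reached the total RNA range.

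The 2 ribosomal protein genes that were not called were Rpl15 and Rpl36al, both of the large subunit. Rpl15 had 54.6 to 310.2 FPKM in RPF (median 109) and 79.0 to 127 in total RNA (median 119), a difference of 0.06 ± 0.27 (limma adjusted p = 0.886). Its RPF values spread on both sides of the total RNA values, with 4 pairs higher and 4 lower. Rpl36al, an expressed copy of Rpl36a, had a difference of -0.68 ± 0.23 (limma adjusted p = 0.0562), and without the T-ALL 2 pair at 8 g/kg it was called lower, at -0.86 (limma adjusted p = 0.0156). Rps27 had almost no reads in either fraction and was not compared.

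Transcript starts of these genes are shown because the TOP motif is defined by the first bases of the message. The sequences are from the RefSeq promoter table (GRCm38.p6). Each has 30 bases with 10 before the annotated start, and capitals mark a C followed by at least 4 letters that are each C or T, with the C within 2 bases of the start. The genes printed were chosen after their values were seen, and include Rpl15 as the member whose footprints were not lower.
Rps15a: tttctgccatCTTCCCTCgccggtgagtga
Rpl34: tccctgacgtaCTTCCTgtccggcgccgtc
Rpl27a: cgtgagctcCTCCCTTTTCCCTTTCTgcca
Rpl35: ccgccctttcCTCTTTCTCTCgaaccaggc
Fau: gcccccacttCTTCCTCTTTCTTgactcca
Rps6: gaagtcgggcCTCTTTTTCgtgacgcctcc
Rpl15: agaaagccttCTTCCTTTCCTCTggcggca
Rack1: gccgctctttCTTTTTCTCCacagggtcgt
Eif3f: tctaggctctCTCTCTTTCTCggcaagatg
Eef1a1: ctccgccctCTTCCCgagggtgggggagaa
They lie at chr7:118116128-118116157 (minus strand) for Rps15a, chr3:130730379-130730408 (minus) for Rpl34, chr7:109519185-109519214 (plus) for Rpl27a and chr2:39005112-39005141 (minus) for Rpl35. Those of Fau and Rps6 lie at chr19:6057937-6057966 (plus) and chr4:86857348-86857377 (minus), and that of Rpl15 at chr14:18270967-18270996 (minus). Those of Rack1, Eif3f and Eef1a1 lie at chr11:48800350-48800379 (plus), chr7:108934405-108934434 (plus) and chr9:78481705-78481734 (minus).

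The differences of the printed genes were -2.88 for Rps15a, -2.72 for Rpl34, -2.19 for Rpl27a, -2.14 for Rpl35, -2.04 for Fau, -1.79 for Rack1, -1.79 for Eif3f, -1.47 for Rps6, -1.32 for Eef1a1 and 0.06 for Rpl15. The run was found, on the transcript strand, at 2942 of the 32851 starts in the RefSeq table (8.96%). Counted by gene, with the run at any of a gene's starts, it was found for 634 of 5080 matched compared genes (12.5%). By the same count it was found for 20 of 56 matched ribosomal protein genes (35.7%) and for 4 of 14 matched TOP translation factors (28.6%). The share of starts and the shares of genes are in different units and cannot be set against each other. Ribosomal protein genes with the run had a median difference of -2.05 and those without it -1.82, and all other genes had -0.43 with it and -0.44 without it. A start annotated a few bases away from the one used in these cells hides the motif, so its absence from the window says nothing about the message. For 21 ribosomal protein genes and 1479 compared genes no start was matched.

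Translation factors known as TOP messages followed the ribosomal proteins, with 17 of 20 called lower, 0 higher and a median of -1.27. Of all genes 16.3% were called lower. The TOP factors took 2.56% ± 0.376 of RPF reads and 4.76% ± 0.126 of total RNA reads (SD, n = 8). Eef1a1, which brings aminoacyl-tRNA to the ribosome, had 3364 to 6358 FPKM in RPF (median 4295) and 9684 to 11616 in total RNA (median 11022), a difference of -1.32 ± 0.10 (limma adjusted p = 1.01e-05). Eef1b2, its nucleotide exchange factor, had 72.2 to 227 FPKM in RPF (median 133) and 868 to 1121 in total RNA (median 972), a difference of -2.86 ± 0.18 (limma adjusted p = 3.48e-06). For Eef2, the translocase, the difference was smaller, -0.71 ± 0.08 (limma adjusted p = 0.000174), from 1408 to 2125 FPKM in RPF against 2632 to 3107 in total RNA. In all of these elongation factors the ranges of the fractions were apart. The poly(A)-binding protein Pabpc1 had -1.13 ± 0.12, the TOP gene Tpt1 -1.25 ± 0.16 and Btf3, a subunit of the nascent polypeptide-associated complex, -2.03 ± 0.20, all called lower. The 3 not called were the elongation factor Eef1d at -0.38 ± 0.14 and the initiation factors Eif4b at -0.00 ± 0.09 and Eif3a at 0.43 ± 0.20 (limma adjusted p = 0.137). Eif3a, the largest subunit of its complex, had 141 to 422 FPKM in RPF (median 203) and 145 to 189 in total RNA (median 171), and was called higher once the pairs were centred. Without the T-ALL 2 pair at 8 g/kg Eef1d was called lower, at -0.46 (limma adjusted p = 0.041).

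Of 33 other translation factors, 16 were called lower and 2 higher, with a median of -0.93, beside 16.3% and 6.45% of all genes. Eif4g2, a relative of the eIF4G scaffold that takes part in cap-independent initiation, was among the lower ones. It had 28.4 to 62.0 FPKM in RPF (median 46.5) and 168 to 217 in total RNA (median 194), a difference of -2.07 ± 0.14 (limma adjusted p = 5.92e-06). The scaffolds Eif4g1 and Eif4g3 were the 2 called higher. Eif4g1 had 116 to 211 FPKM in RPF (median 154) and 80.4 to 111 in total RNA (median 92.9), a difference of 0.70 ± 0.14 (limma adjusted p = 0.00696), and Eif4g3 had 0.61 ± 0.16 but was not called at equal depth. Members of the eIF4G family therefore lay on opposite sides.

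**Figure D2:**
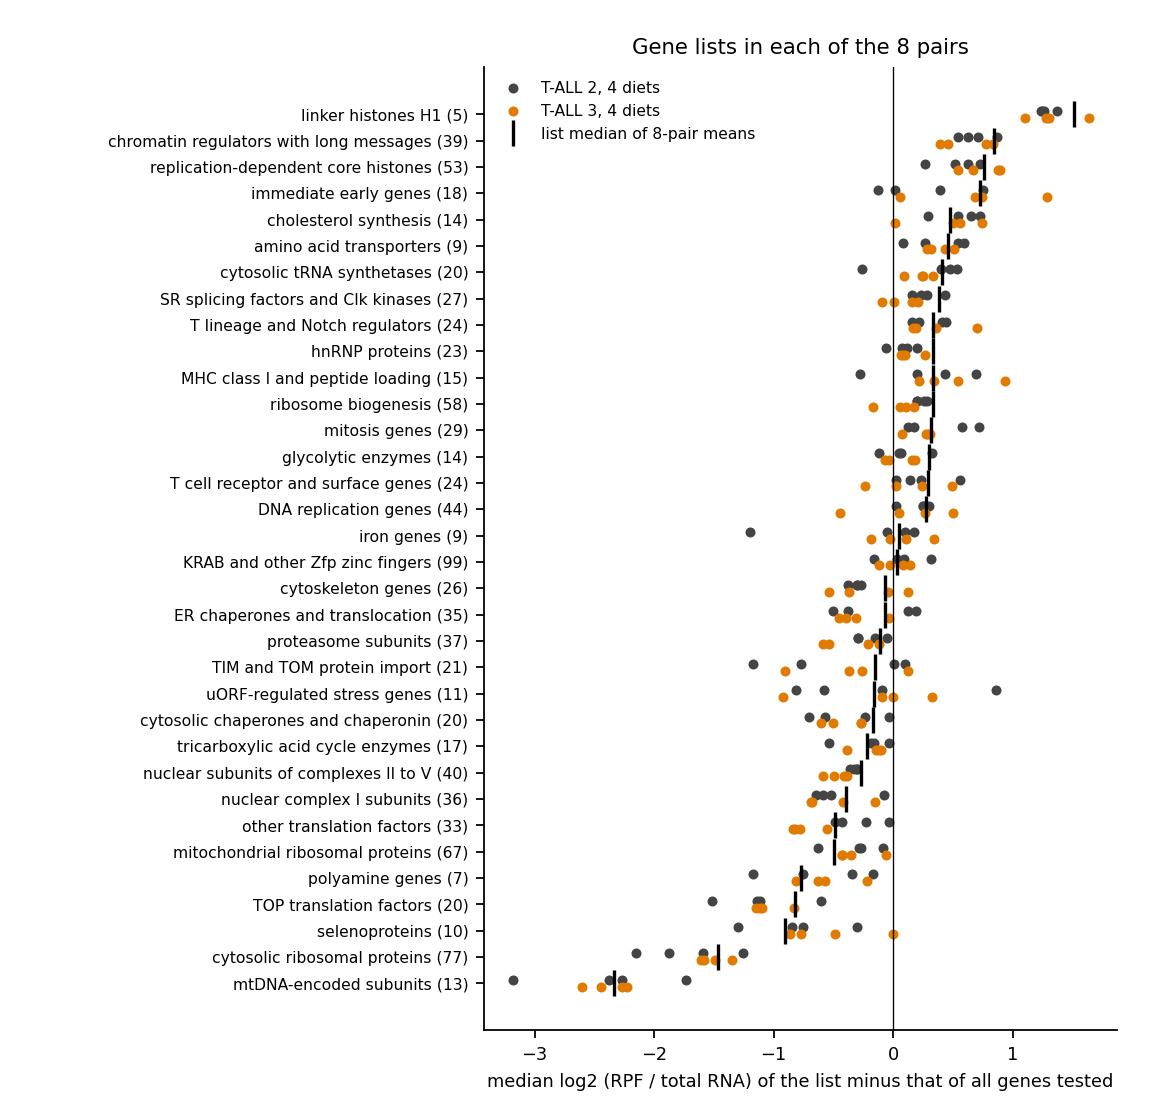
Median difference of each gene list minus that of all genes tested, as log2 of RPF over total RNA, with a point for each of the 8 pairs (grey for T-ALL 2, orange for T-ALL 3) and a bar for the list's median over the 8-pair means. The number of compared genes is in brackets. The bars lie at -2.33 for mtDNA-encoded subunits, -1.47 for cytosolic ribosomal proteins, 0.76 for core histones and 1.52 for linker histones.

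The mtDNA-encoded subunits of the respiratory chain lay even further down. Of 13 compared, 10 were called lower and 0 higher, with a median of -2.78, where 16.3% of all genes were called lower. For 10 every RPF value was below every total RNA value, as for 6.85% of all genes. These genes are short, with a median length of 784 bases. Of the 48 genes of 500 to 1000 bases in the length bins above, 70.8% were called lower, with a median of -0.97. The mtDNA-encoded subunits took 0.689% ± 0.219 of RPF reads and 3.13% ± 0.164 of total RNA reads (SD, n = 8). The list median of a pair ran from -3.27 in T-ALL 2 at 0.8 g/kg to -1.96 in T-ALL 2 at 0 g/kg. By complex, 5 of 7 complex I subunits, 3 of 3 complex IV subunits, mt-Cytb of complex III and 1 of 2 ATP synthase subunits were called.

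mt-Nd1, a membrane subunit of complex I, had 154 to 383 FPKM in RPF (median 268) and 2025 to 3290 in total RNA (median 2741), a difference of -3.40 ± 0.15 (limma adjusted p = 9.11e-07). mt-Nd4 had 61.2 to 266 FPKM in RPF (median 143) and 1296 to 1830 in total RNA (median 1542), a difference of -3.56 ± 0.19 (limma adjusted p = 1.8e-06). mt-Co1, the catalytic subunit of cytochrome oxidase, had 522 to 1609 FPKM in RPF (median 809.8) and 5882 to 6863 in total RNA (median 6479), a difference of -2.88 ± 0.16 (limma adjusted p = 1.81e-06). The ATP synthase subunits stood closer to their RNA. mt-Atp6 had 707 to 1989 FPKM in RPF (median 1364) and 3544 to 4930 in total RNA (median 4056), a difference of -1.62 ± 0.13 (limma adjusted p = 2.21e-05). mt-Atp8, whose reading frame overlaps that of mt-Atp6 on a shared message, had 413 to 2376 FPKM in RPF (median 1640) and 1857 to 2702 in total RNA (median 2239), a difference of -0.84 ± 0.28 (limma adjusted p = 0.0553). Without the T-ALL 3 pair at 0.4 g/kg mt-Atp8 was called lower, at -0.98 (limma adjusted p = 0.0456). mt-Nd4l, which likewise overlaps mt-Nd4, had -0.66 ± 0.27 (limma adjusted p = 0.109), far from the -3.56 of its partner. Where frames overlap, reads of the partners may be shared or dropped by the counting, which is not stated.

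Nuclear genes of the respiratory chain lay lower too, by less. Of 36 nuclear complex I subunits, 17 were called lower and 0 higher, with a median of -0.84, and at equal depth 0 were called. Of 40 nuclear subunits of complexes II to V, 21 were lower and 2 higher, with a median of -0.71. Uqcr11 of complex III, at 1.05 ± 0.20, was 1 of the 2 higher. Of 67 mitochondrial ribosomal proteins 11 were lower, a share near the 16.3% of all genes, and 2 higher. Their median of -0.94, from a median of 3.25 RPF reads per library, was -0.43 for the ratio of means and -0.24 with voom, and at equal depth 2 were lower. Tricarboxylic acid cycle genes had 6 of 17 lower, with a median of -0.66, and 1, Ogdh at 0.84 ± 0.14, higher. Neither Uqcr11 nor Ogdh was called at equal depth.

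Histone genes held more footprints than their RNA. Of 53 replication-dependent core histone genes compared, 22 were called higher, 6 lower and 25 neither, with a median of 0.31, where 6.45% of all genes were called higher. All 56 core histone genes in the table took 5.05% ± 1.23 of RPF reads and 2.81% ± 0.497 of total RNA reads (SD, n = 8), with the RPF share higher in all 8 pairs. By family, H2A had 7 of 15 higher and 0 lower, with a median of 0.80, and H3 had 6 of 11 higher and 1 lower, with 0.65. H2B had 6 of 15 higher and 3 lower, with -0.21, and H4 had 3 of 12 higher and 2 lower, with -0.00. The RPF share of reads was higher in all 8 pairs for each family, with means of 1.08% against 0.524% for H2A, 1.18% against 0.522% for H2B, 1.40% against 0.720% for H3 and 1.39% against 1.03% for H4. No test compared the families. Because copies of a histone are nearly identical, reads may be assigned to the wrong copy, and the read share of the whole list is firmer than any gene in it.

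The largest positive difference of any named gene was that of Hist1h2bn, an H2B copy, with 899.9 to 3220 FPKM in RPF (median 1509) and 69.6 to 273 in total RNA (median 232), a difference of 2.98 ± 0.17 (limma adjusted p = 1.81e-06) and of 4.36 at equal depth. Hist1h2bg, also H2B, had 1878 to 6223 FPKM in RPF (median 4441) and 687 to 1338 in total RNA (median 1066), a difference of 2.02 ± 0.12 (limma adjusted p = 2.2e-06). At the other end, the H3 copy Hist2h3c2 had 10.8 to 49.4 FPKM in RPF (median 28.6) and 96.9 to 187 in total RNA (median 139), a difference of -2.31 ± 0.19 (limma adjusted p = 2.24e-05) and of -3.63 at equal depth.

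Linker histones H1, which bind between nucleosomes, had 4 of 5 genes called higher, where 6.45% of all genes were, and 1 lower. Their median was 1.07. They took 1.81% ± 0.399 of RPF reads and 0.727% ± 0.144 of total RNA reads (SD, n = 8). Hist1h1b had 3394 to 9207 FPKM in RPF (median 6877) and 1327 to 2750 in total RNA (median 2137), a difference of 1.59 ± 0.08 (limma adjusted p = 9.11e-07). Hist1h1d had 3612 to 7498 FPKM in RPF (median 6332) and 1335 to 2859 in total RNA (median 2225), a difference of 1.42 ± 0.07 (limma adjusted p = 9.11e-07). For both genes every RPF library lay above every total RNA library. Hist1h1c had a smaller difference of 0.72 ± 0.11 with overlapping ranges. Hist1h1e, the member called lower, had 401 to 1313 FPKM in RPF (median 915) and 954 to 1626 in total RNA (median 1365), a difference of -0.66 ± 0.12 (limma adjusted p = 0.00519), which at equal depth was not called (adjusted p = 0.14).

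**Figure D3:**
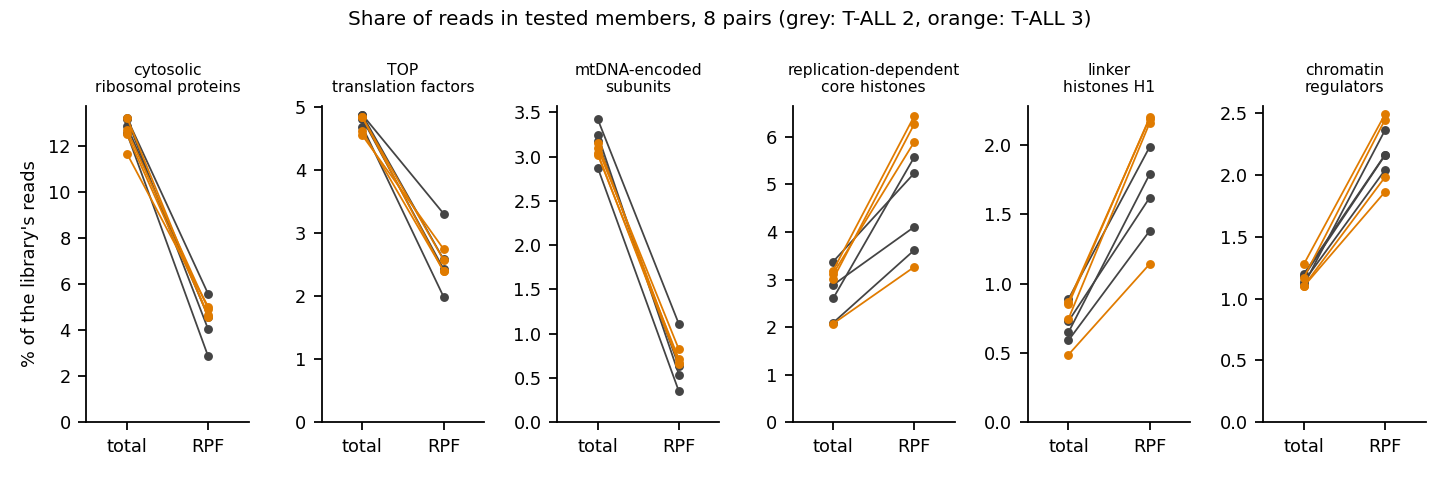
Share of library reads, in percent on axes that start at 0, taken by the compared genes of 6 lists in total RNA (left) and RPF (right), with a line for each of the 8 pairs (grey for T-ALL 2, orange for T-ALL 3). Every pair goes down for cytosolic ribosomal proteins, from a mean of 12.8% to 4.54%, and up for core histones, linker histones and chromatin regulators.

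A list of chromatin regulators with long messages, enzymes and remodellers that modify nucleosomes, was on the side of more footprints. Of 39 compared, 16 were called higher and 1 lower, with a median of 0.40, where 6.45% of all genes were called higher. For 10 of them all RPF values lay above all total RNA values, as for 2.06% of all genes. The median length of the list was 8862 bases. Of all 192 genes of 8000 bases or more with at least 50 reads per library, 34.4% were called higher, with a median of 0.35. These 192 include members of the list. The list took 2.19% ± 0.228 of RPF reads and 1.16% ± 0.0616 of total RNA reads (SD, n = 8). Kmt2d, a histone H3 lysine 4 methyltransferase on chromosome 15 from 98831669 to 98874077 (GRCm38), had 106 to 219 FPKM in RPF (median 152) and 52.5 to 70.0 in total RNA (median 61.9), a difference of 1.30 ± 0.12 (limma adjusted p = 4.94e-05). Arid1a, a DNA-binding subunit of the BAF remodelling complex, had 118 to 248 FPKM in RPF (median 172) and 63.6 to 80.1 in total RNA (median 69.8), a difference of 1.30 ± 0.14 (limma adjusted p = 0.000166). The splicing coactivator Srrm2, also a very long protein, had 264 to 471 FPKM in RPF (median 343) and 128 to 162 in total RNA (median 136), a difference of 1.33 ± 0.13 (limma adjusted p = 6.5e-05). For these 3 genes the fractions did not overlap. Kmt2e was the regulator called lower, at -0.96 ± 0.25, and was not called without the T-ALL 2 pair at 0.4 g/kg (-0.95, limma adjusted p = 0.0501) or the T-ALL 3 pair at 0.8 g/kg (-0.87, limma adjusted p = 0.0537), nor with centred pairs or at equal depth.

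This list was drawn up from long genes, and among well-covered genes the difference went with gene length. Over the 1778 genes with a mean of at least 50 reads per library, the Spearman correlation of the difference with length was 0.422, and over the 1624 of them outside the ribosomal, TOP factor, histone and mtDNA lists it was 0.406. Over all 6559 genes it was 0.387, with 0.257 for the ratio of means and 0.198 at equal depth. This correlation is across genes within the same libraries, and genes are not independent replicates. Among the 1624 genes the median difference was -1.92 for 13 genes under 500 bases, -0.97 for 48 genes of 500 to 1000 bases and -0.53 for 205 genes of 1000 to 2000 bases. It was -0.32 for 299 genes of 2000 to 3000 bases, -0.18 for 286 genes of 3000 to 4000, -0.01 for 384 genes of 4000 to 6000, 0.20 for 197 genes of 6000 to 8000 and 0.35 for 192 genes of 8000 or more. FPKM divides by the length of the gene model, whereas footprints come mostly from the coding sequence. Coding lengths were not used here, so the part of untranslated sequence in this relation was not tested. Length does not order every gene: Eif4g2 with 7995 bases lay at -2.07, where the median for genes of 6000 to 8000 bases was 0.20.

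**Figure D4:**
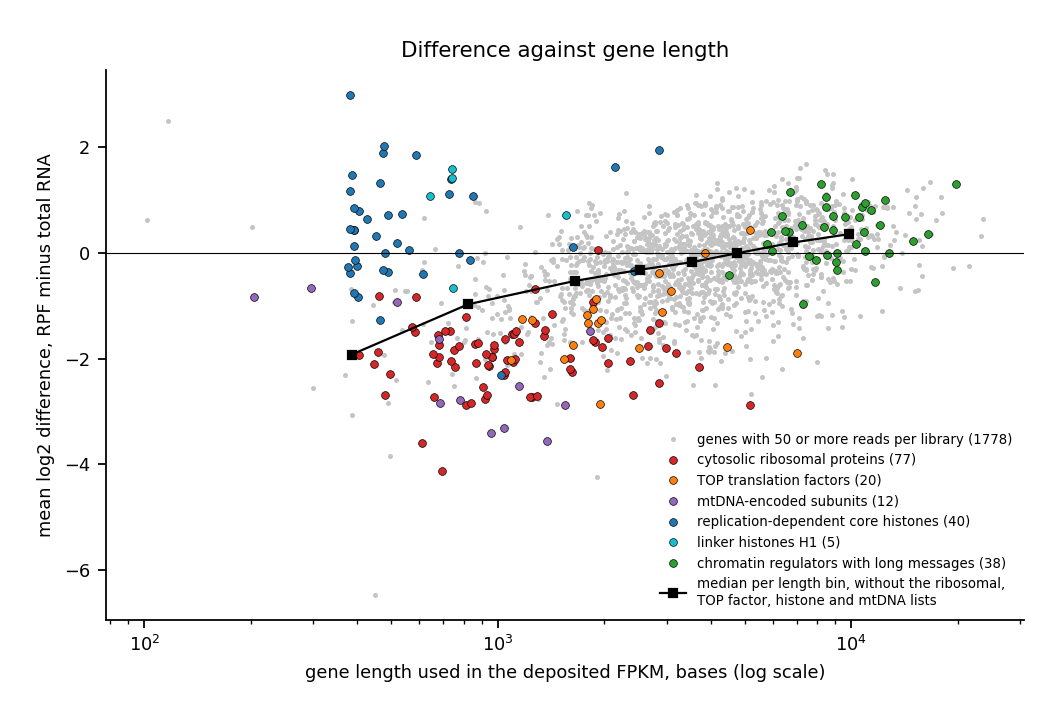
Difference between RPF and total RNA (log2) against gene length in bases (log axis) for the 1778 genes with at least 50 reads per library, with lists in colour and black squares for the median of each length bin outside the ribosomal, TOP factor, histone and mtDNA lists. The squares go from -1.92 under 500 bases to 0.35 at 8000 bases or more.

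Among genes of the T lineage and Notch signalling, 7 of 24 were called higher and 3 lower, beside 6.45% and 16.3% of all genes. The median difference of the list was -0.11. Its genes were better covered, with a median of 41.9 RPF reads per library against 6 over all genes. Of 438 genes with a mean of 100 to 200 reads per library, 18.9% were called higher and 29.2% lower. Those 438 genes had a median of 33.9 RPF reads. The list took a larger share of RPF than of total RNA reads in all 8 pairs, on average 1.65% against 1.08%. This share includes Notch1, which alone had a median of 544 reads per RPF library and 1851 per total RNA library. The share of the list without Notch1 was not computed. Notch1, the receptor whose activated form drives these leukaemias, lies on chromosome 2 from 26457902 to 26503822 (GRCm38). It had 482 to 873 FPKM in RPF (median 632) and 235 to 413 in total RNA (median 277), a difference of 1.11 ± 0.08 (limma adjusted p = 1.03e-05), and every RPF library was above every total RNA library. Reads of the transplanted NOTCH-ΔE construct cannot be told apart here from those of the mouse gene. Runx1, a transcription factor of blood cell development, had 33.4 to 62.5 FPKM in RPF (median 41.8) and 16.04 to 30.1 in total RNA (median 17.5), a difference of 1.18 ± 0.17 (limma adjusted p = 0.00128). The other genes called higher were Id3 at 1.05 ± 0.19, Bcl11b at 0.76 ± 0.13, Notch3 at 0.74 ± 0.13, Gata3 at 0.72 ± 0.11 and the Notch target Heyl at 0.99 ± 0.30. Whichever 1 of the 8 pairs was left out, Heyl was no longer called, with values of 0.72 to 1.07. Called lower were Tcf7, Ikzf1 and Myb. Tcf7, a factor of T cell specification, had 195 to 309 FPKM in RPF (median 236) and 304 to 416 in total RNA (median 382), a difference of -0.65 ± 0.13 (limma adjusted p = 0.00676), and was higher in RPF in 1 of 8 pairs. Ikzf1 and Myb, factors of lymphoid and blood progenitor development, both had -0.51 ± 0.11, close to the median gene, and were not called with centred pairs. At equal depth Tcf7, Ikzf1, Myb, Bcl11b and Heyl were not called. The Notch target Myc had 203 to 362 FPKM in RPF (median 319.5) and 143 to 272 in total RNA (median 211), a difference of 0.56 ± 0.11 (limma adjusted p = 0.00533). The ranges of Myc overlapped, while all 8 pairs were higher in RPF.

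T cell surface and receptor signalling genes were divided, with 4 of 24 called higher, 5 lower and a median of -0.15. Of all genes, 6.45% were called higher and 16.3% lower. Cd3g, a chain of the T cell receptor complex, had 129.7 to 274 FPKM in RPF (median 188) and 359.8 to 684 in total RNA (median 450.1), a difference of -1.26 ± 0.11 (limma adjusted p = 3.59e-05). Cd3e, another chain of the same complex, had 362 to 782 FPKM in RPF (median 413) and 396 to 830.1 in total RNA (median 455), a difference of -0.17 ± 0.07 (limma adjusted p = 0.135). Within this complex Cd3g was thus called lower and Cd3e was not, and the difference between the genes was not tested. Lck, the kinase that starts receptor signalling, had 175 to 268 FPKM in RPF (median 221) and 396 to 534 in total RNA (median 441), a difference of -1.05 ± 0.11 (limma adjusted p = 0.000103). The surface glycoprotein Thy1, at -1.04 ± 0.13, was also lower. Ptprcap, which associates with the phosphatase CD45, had 345 to 705 FPKM in RPF (median 484) and 235 to 331 in total RNA (median 271), a difference of 0.79 ± 0.13 (limma adjusted p = 0.002). Il2rg, a shared cytokine receptor chain, and the adhesion molecule Cd2 were also higher, at 0.79 ± 0.13 and 0.49 ± 0.10, and Cd2 was not called at equal depth.

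**Figure D5:**
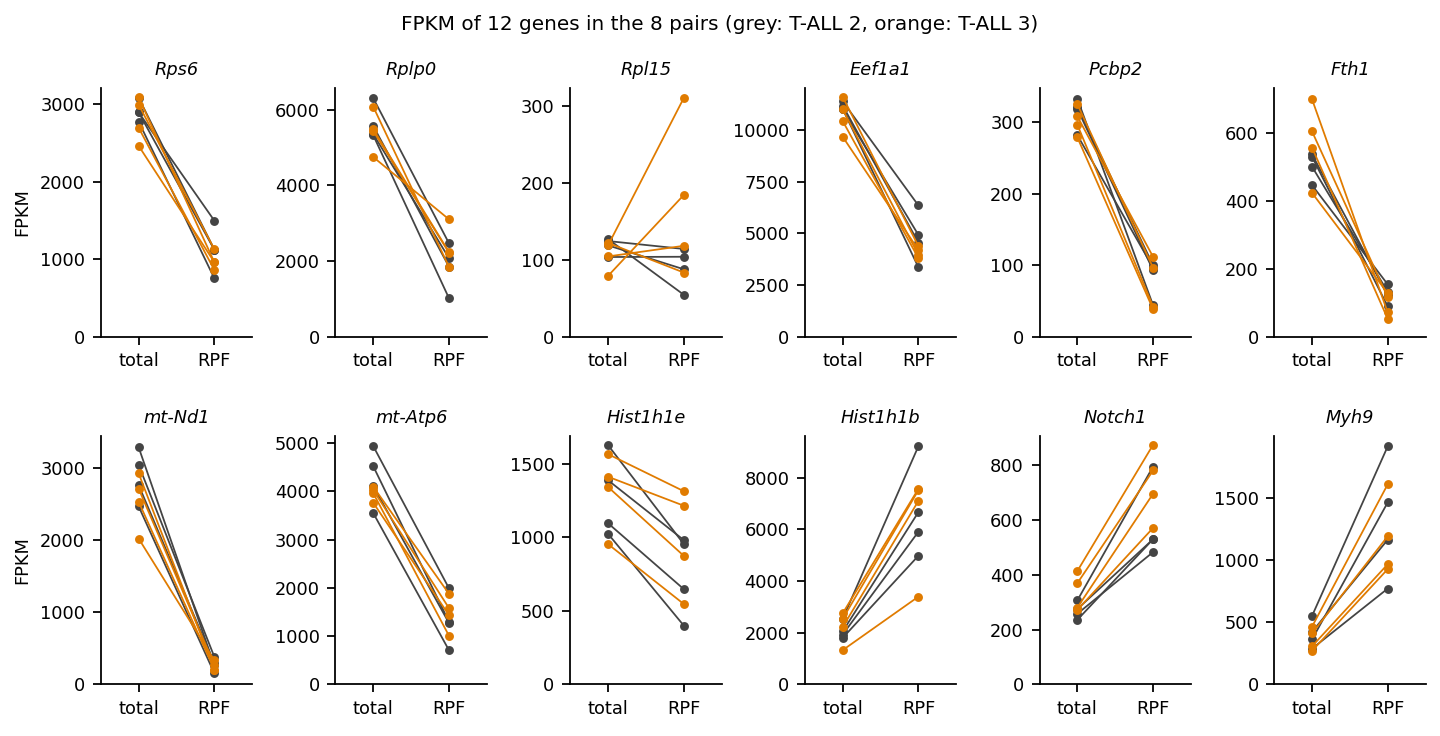
FPKM of 12 named genes in total RNA (left) and RPF (right) on linear axes that start at 0, with a line for each of the 8 pairs (grey for T-ALL 2, orange for T-ALL 3). RPF lies below total RNA in every pair for Rps6, Rplp0, Eef1a1, Pcbp2, Fth1, mt-Nd1, mt-Atp6 and Hist1h1e, above it for Hist1h1b, Notch1 and Myh9, and on both sides for Rpl15.

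Some genes whose translation is known to be regulated held few footprints. Of all genes 16.3% were called lower and 6.45% higher. Of 7 polyamine genes, 3 were called lower and 0 higher, with a median of -1.21. That median, from a median of 4.25 RPF reads per library, was -0.78 for the ratio of means and -0.75 with voom. Odc1, the first enzyme of polyamine synthesis, had 14.98 to 46.2 FPKM in RPF (median 18.6) and 54.9 to 88.4 in total RNA (median 66.5), a difference of -1.61 ± 0.20 (limma adjusted p = 0.00039). Oaz1, the antizyme made by a frameshift, had 61.5 to 167 FPKM in RPF (median 109) and 176 to 224 in total RNA (median 209), a difference of -1.03 ± 0.18 (limma adjusted p = 0.0033). Fth1, the ferritin heavy chain whose message carries an iron-responsive element, had 52.5 to 154 FPKM in RPF (median 119) and 423 to 698 in total RNA (median 533), a difference of -2.37 ± 0.22 (limma adjusted p = 4.87e-05). Every RPF value of these 3 genes was below every total RNA value. The list of 9 iron genes as a whole did not lie low, with a median of -0.40 beside -0.45 over all genes. Of the iron genes 2, Fth1 among these, were called lower, a share near the 16.3% of all genes. Of 10 selenoprotein genes, whose reading frames hold a UGA codon read as selenocysteine, 5 were lower and 0 higher, with a median of -1.35. Among the 5 was the lipid peroxidase Gpx4 at -1.15 ± 0.26, which was not called at equal depth. The list median, from a median of 2.94 RPF reads per library, was -0.78 for the ratio of means and -0.77 with voom. With centred pairs 2 selenoprotein genes were lower, and at equal depth 1, beside 10.5% and 4.38% of all genes. Pcbp2, an RNA-binding protein, had 38.6 to 112 FPKM in RPF (median 94.9) and 279 to 333 in total RNA (median 314), a difference of -2.09 ± 0.20 (limma adjusted p = 7.82e-05).

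Among 11 stress genes regulated through upstream open reading frames, which lower initiation at the main frame, 1 was lower and 0 higher, from a median of 4.88 RPF reads per library. Atf4, the transcription factor of the amino acid response, had 48.9 to 190 FPKM in RPF (median 104) and 52.9 to 126 in total RNA (median 65.7), a difference of 0.51 ± 0.18 (limma adjusted p = 0.0707). Without the T-ALL 3 pair at 0 g/kg Atf4 was called higher, at 0.62 (limma adjusted p = 0.0399), as it was with centred pairs and with voom. Among the cytosolic tRNA synthetases 4 of 20 were higher and 3 lower, beside 6.45% and 16.3% of all genes, and their median was -0.04. Vars, which charges tRNA with valine, had 178 to 443 FPKM in RPF (median 321) and 159 to 183 in total RNA (median 172), a difference of 0.77 ± 0.17 (limma adjusted p = 0.0103), and was higher in RPF in 7 of 8 pairs. The synthetase Aars, for alanine, was higher as well, at 0.98 ± 0.16, whereas Dars at -1.08 ± 0.14, Qars at -0.85 ± 0.20 and Kars at -0.67 ± 0.13 were lower. Of these 5 synthetases Aars alone was called at equal depth. Of 9 amino acid transporters, 2 were higher and 0 lower.

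Among cytoskeletal genes 15 of 26 were lower and 3 higher, beside 16.3% and 6.45% of all genes. Their median was -0.51, near the -0.45 of all genes, and at equal depth 4 were lower and 2 higher. The share of reads went the other way. All 27 in the table took 3.36% ± 0.417 of RPF reads and 2.89% ± 0.204 of total RNA reads (SD, n = 8). The RPF share was higher in 7 of 8 pairs. Myh9, the heavy chain of non-muscle myosin, had 772 to 1917 FPKM in RPF (median 1180) and 271 to 552 in total RNA (median 387), a difference of 1.68 ± 0.09 (limma adjusted p = 1.33e-06). Tmsb10, a small actin-binding thymosin, had 195 to 1071 FPKM in RPF (median 601) and 992 to 2520 in total RNA (median 1992), a difference of -1.73 ± 0.11 (limma adjusted p = 5.32e-06). Its relative Tmsb4x had 0.96 ± 0.12 (limma adjusted p = 0.000503), so the 2 thymosins lay on opposite sides. Immediate early genes had 4 of 18 higher and 1 lower, with a median of 0.28. Fos had 18.1 to 79.0 FPKM in RPF (median 39.8) and 2.89 to 44.7 in total RNA (median 12.6), a difference of 1.67 ± 0.32 (limma adjusted p = 0.00582), from 4 to 15 RPF reads. Klf2, a factor of T cell quiescence and migration, had 0.91 ± 0.22. Neither Fos, with 2.27, nor Klf2 was called at equal depth.

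For the lists that follow, the shares over all genes were 6.45% called higher and 16.3% called lower. The lower counts of DNA replication, ribosome biogenesis, SR and Clk, class I and mitochondrial import genes lay near that 16.3%. No list was tested against these shares. Mitosis genes had 6 of 29 higher and 1 lower, with Cenpf at 0.96 ± 0.19 and Mki67 at 0.81 ± 0.16, both of them very long proteins. DNA replication genes had 8 of 44 higher and 7 lower, with the polymerase subunit Pole at 0.89 ± 0.17 and the ligase Lig1 at 0.82 ± 0.16 on the higher side. Ribosome biogenesis factors, which build ribosomes without being part of them, had 6 of 58 higher and 7 lower, with a median of -0.12 where the ribosomal proteins had -1.92. Splicing factors of the SR and Clk families had 4 of 27 higher and 5 lower, and hnRNP proteins 3 of 23 higher and 5 lower. Chaperones had 12 of 20 lower and 0 higher, with a median of -0.62, and the proteasome 12 of 37 lower and 0 higher, with -0.56. Genes of the endoplasmic reticulum had 12 of 35 lower and 2 higher, with -0.52. The chaperone Hspa5 of that compartment, at 0.59 ± 0.13, was one of the 2. These 3 medians were near the -0.45 of all genes. At equal depth 5 chaperone, 1 proteasome and 0 endoplasmic reticulum genes were lower and 0 higher, beside 4.38% lower of all genes. With centred pairs 9, 7 and 9 were lower, beside 10.5% of all genes, and 0, 0 and 5 higher. Glycolytic enzymes had 4 of 14 lower, Aldoa at -1.04 ± 0.24 among them, and 1 higher. Antigen presentation genes of class I had 3 of 15 higher, with the peptide transporter Tap2 at 0.85 ± 0.13, and 2 lower. Zinc finger genes had 0 of 99 higher and 7 lower, cholesterol synthesis genes 1 of 14 each way, and mitochondrial import genes 4 of 21 lower and 0 higher. Of the genes often used as references, Actb had -0.47 ± 0.11 and Gapdh -0.68 ± 0.11, both called lower, though Actb was not called with centred pairs. At equal depth Cenpf, Mki67, Pole, Lig1, Hspa5 and Aldoa were not called.

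The genes at the ends of the scale included several annotated copies and small genes. Gm20594, for which RefSeq gives the synonym Mtrnr2l, had 281 to 791 FPKM in RPF (median 329) and 29731 to 40067 in total RNA (median 32512), a difference of -6.46 ± 0.18 (limma adjusted p = 6.54e-08) or 88.2-fold. Its name refers to likeness with mitochondrial ribosomal RNA, and reads of that RNA cannot be told apart here from its own. The pseudogene Rps12-ps3 had 213 to 849.9 FPKM in RPF (median 305) and 4045 to 5376 in total RNA (median 5007), a difference of -3.84 ± 0.19. Amotl2, a membrane protein of the angiomotin family, had 28.5 to 129 FPKM in RPF (median 77.4) and 6.92 to 21.8 in total RNA (median 10.1), a difference of 2.67 ± 0.29 (limma adjusted p = 0.000156). Gm10491, a gene model of 117 bases, had 2321 to 8792 FPKM in RPF (median 3963) and 415 to 1463 in total RNA (median 695), a difference of 2.49 ± 0.09 (limma adjusted p = 1.99e-07). The β-globin Hbb-bs had 70.7 to 904 FPKM in RPF (median 205) and 7.68 to 353 in total RNA (median 58.9), a difference of 2.11 ± 0.31 (limma adjusted p = 0.00134), and it is itself 1 of the erythroid markers whose reads were counted above. On the lower side the size of several differences rested on few footprints. Hscb at -4.46 ± 0.82, Rwdd1 at -4.36 ± 0.83 and Rpl22l1 at -4.24 ± 0.73 had from 0 to at most 5 RPF reads per library. By voom on the reads, which handles low counts differently, they had -1.99, -2.22 and -3.14. At equal depth Rwdd1 was not called, nor was Hbb-bs, with 3.25. Of the 1070 genes called lower, 183 had a mean of fewer than 2 RPF reads per library.

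A further 956 genes reached 5 FPKM in total RNA only and 421 in RPF only. The 956 had a median of 1.12 RPF reads per library, and 30 of them had 0 RPF reads in all libraries. Akr1cl, an aldo-keto reductase gene, had 0 RPF reads against 2948 total RNA reads summed over the 8 libraries, with 284 ± 65.0 FPKM (SD, n = 8) in total RNA. The histone copy Hist1h2bq had 0 against 769 reads. The phosphatase Ptp4a2 had 15 RPF reads against 763. These genes were not tested.

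The footprint difference was also compared between the T-ALLs, with diet as a block. Of 6559 genes limma called 0 (0%), and the lowest adjusted p was 0.241. The unadjusted limma p was under 0.05 for 300 genes, beside about 328 expected by chance. At equal depth 1 gene was called, Uqcrb of complex III (adjusted p = 0.0201). In all pairs of both T-ALLs the medians of ribosomal proteins were negative and those of core histones positive. Ribosomal proteins had -2.34 to -1.59 in T-ALL 2 and -1.92 to -1.54 in T-ALL 3, and core histones 0.18 to 0.44 and 0.28 to 0.78. Other lists were less settled, and the median of mitosis genes ran from -0.31 to 0.53 over the pairs.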

How the data were processed

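The authors deposited FPKM for 16 libraries in 1 table. Named in the submitters' processing notes, without roles, are STAR 2.5.0c, Bowtie2 2.3.4, cutadapt 1.18 and edgeR 3.14.0, with the builds GRCm38 and mm10. How reads were counted and genes filtered is not given in the sources. Reads per gene were recovered from the steps between values: 149988 nonzero values (100%) came out whole within 0.02 reads. Where a gene had 0 reads, a library allows up to 3, for counting error only.

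Differences of log2(FPKM + 0.5), RPF minus total RNA, were fitted over 8 pairs with limma 3.58.1 (R 4.3.3) against 0, with a trended variance, two-sided, and adjusted by Benjamini-Hochberg over 6559 genes. SEs are from this fit. The scripts were tested on simulated data. Further fits used centred pairs, equal depth, voom on recovered reads, other filters and pseudocounts, and each pair left out.

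Members and lists were chosen with earlier results of these data known. Named genes were, by rule, the 12 largest differences per direction with the same sign in all 8 pairs, an adjusted p under 0.05 and a mean of at least 10 reads per library. To these came up to 2 members at each end of a list and a fixed set. Further list members, the starts shown, Uqcrb and the genes with few or 0 RPF reads were named after their values were seen. Of 12005 symbols 11391 were in the RefSeq table (GRCm38.p6). Some genes are not reported here.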

Additional observations from a re-analysis of the deposited data

Results flagged for a closer look

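Chance alone would set apart about 1 in 20 groups of 8 values by Dixon's criterion. Of 132 values tested (list medians and named genes), 4 had 1 pair far from the other 7. Rpl41 had a difference of -9.91 in T-ALL 2 at 0 g/kg, where its RPF library had 0 reads, and -4.68 to -2.12 in the other pairs. The median of the iron genes was -1.20 in T-ALL 2 at 0 g/kg relative to all genes, and -0.19 to 0.34 in the others. The Notch target Heyl had a difference of 2.82 in T-ALL 3 at 0 g/kg and 0.37 to 1.33 in the others, and Id3 one of 2.26 in T-ALL 2 at 8 g/kg and 0.39 to 1.27 in the others.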

How the results depend on the processing

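Gene calls depended on filter, scaling and depth, and the cause was not tested beyond what each setting itself changes (fewer pairs, fewer genes or fewer reads). Genes called higher, 423 in the fit reported, numbered 713 with each pair centred, 720 with values scaled to the table's reads, 883 with voom, 104 at equal depth, and 71 in the T-ALL 2 pairs alone as in the T-ALL 3 pairs alone. Genes called lower, 1070 in the fit reported, numbered 1648 with a minimum mean of 1 FPKM, 658 with 20 FPKM, 2225 with no filter, 689 centred, 287 at equal depth, 249 and 255 in T-ALL 2 and T-ALL 3 alone, 639 scaled to the table's reads and 458 with a mean of at least 10 RPF reads. All 423 higher calls were among those of the centred fit and of voom, and 97 among those at equal depth. Of the 1070 lower calls 689, 951 and 280 were shared. The median difference of all genes, -0.45, was -0.59 with 1 FPKM, -0.23 with 20 FPKM, -0.21 centred, -0.13 at equal depth, -0.061 with voom, -0.22 scaled to the table's reads, -0.14 for the ratio of means, and reversed to 0.045 with at least 10 RPF reads.

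Relative to the median gene the leading lists kept their direction. Ribosomal proteins, at -1.47, had -1.85 at equal depth, -1.86 with voom and -1.94 with at least 10 RPF reads. TOP factors, at -0.82, had -1.22, -1.18 and -1.31 in the same order and -1.09 for the ratio of means. Core histones, at 0.76, had 0.50 with voom, 0.55 in T-ALL 2 alone and 0.39 with at least 10 RPF reads. Linker histones, at 1.52, had 1.30 with 20 FPKM, 1.20 at equal depth, 1.14 with voom, 1.02 with at least 10 RPF reads and 1.23 for the ratio of means. Chromatin regulators, at 0.85, had 0.63 with 20 FPKM, 0.55 with voom, 0.36 with at least 10 RPF reads and 0.61 for the ratio of means. Centred calls, 713 higher and 689 lower, numbered 187 and 203 at equal depth, 127 and 187 in T-ALL 2 alone, and 129 and 181 in T-ALL 3 alone. With no filter 1203 were lower, and with at least 10 RPF reads 471 were higher. Between the T-ALLs, 1 gene was called at equal depth.

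The labels pair libraries by T-ALL number and diet and do not say that a pair comes from the same mouse. Deviations of partners from their fraction's means correlated at 0.093 to 0.169, and 7 of 8 libraries correlated best with their own partner. With no replicate block, the unpaired fit, 468 genes were higher and 1205 lower. With the T-ALL number as a random replicate block (consensus correlation -0.08) 556 were higher and 1520 lower, and after centring 920 and 1063. Leaving out each pair in turn gave 315 to 381 higher and 750 to 895 lower calls, 535 to 661 and 483 to 608 after centring, a median of -0.48 to -0.38, and 0 genes between the T-ALLs. Relative list medians were then -1.60 to -1.38 for ribosomal proteins, -0.95 to -0.77 for TOP factors, -2.46 to -2.24 for mtDNA-encoded subunits, 0.70 to 0.86 for core histones, 1.45 to 1.54 for linker histones and 0.78 to 0.89 for chromatin regulators. Over the named genes, 4531 of 5098 alternative values counted as unchanged, 460 lost the call and 107 gained one. Where a gene was called in the fit reported or in the alternative, 0 reversed. A gene called in neither could turn sign and still count as unchanged, as Rpl15 did at equal depth (-0.17). For the ratio of means, which has no call, unchanged meant a shift smaller than the SD over pairs. Over 34 lists, 25 of 609 values turned sign. Settings that keep genes with at least 10 RPF reads, scale to the table's reads or take the ratio of means were chosen after seeing the data. The planned comparison by coding length was not run. With a median of 6 RPF reads per gene and library, differences of single genes with few footprints are not settled at this depth.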
